A study of Mus musculus with 5 samples.

Results

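This section describes 37 genes of the postsynaptic density and of calcium/calmodulin signalling in ribosome-bound RNA from cerebral cortex and dentate gyrus. They were chosen as families of scaffold proteins (Dlg, Dlgap, Shank), calmodulin-dependent kinases and the actin and small GTPase regulators that sit with them, and the rule itself uses no measured value, though the choice was made with earlier results of these libraries in view. All 37 were found by symbol among the 32531 genes listed, and all 37 entered the test. The animals were adult mice carrying the Rbp4-Cre KL100 driver together with a Rosa26-LSL-EGFP/Rpl10a allele, so a green fluorescent protein fused to the ribosomal protein Rpl10a is made where Cre has been active. Tagged polysomes were pulled down with an antibody against the fluorescent protein (translating ribosome affinity purification, TRAP) from 2 cortex and 3 dentate gyrus preparations, and no treatment was given. All groups share the driver and the tag. KL100 is a single transgenic line, and the cells sampled are those in which its Rbp4 regulatory sequence has driven Cre. The labels do not state sex, exact age, or whether a replicate is 1 animal or a pool, and the p-values given here therefore cover the spread among these libraries, which may be technical.

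The postsynaptic density is the protein-rich layer under the membrane of excitatory synapses. Its membrane-associated guanylate kinases, encoded by the Dlg genes, hold glutamate receptors; SAPAP proteins, encoded by the Dlgap genes, link them to the Shank proteins, and Shank proteins reach the actin skeleton of the dendritic spine. Calcium entering through glutamate receptors loads calmodulin, which switches on CaMKII, a ring of subunits in which the alpha and beta forms dominate in forebrain neurons, and a separate cascade in which the kinases CaMKK1 and CaMKK2 phosphorylate and activate CaMKI and CaMKIV. Several of these messenger RNAs, Camk2a, Shank1 and Dlgap3 among them, are known to travel into dendrites.

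Counts over genes ran from 22600963 to 36837908 per library. The tissue labels were checked against marker genes. Granule cell markers, 5 of 5 higher in dentate gyrus, summed to 3483 to 3872 CPM there and to 162 and 217 CPM in the cortex libraries. CPM are counts per 1e6 counts over genes after TMM scaling (trimmed mean of M values). Of 4 markers of layer 5 projection neurons 3 were higher in cortex, and they summed to 948 and 839 CPM in cortex and 206, 336 and 248 CPM in dentate gyrus. Markers of CA pyramidal cells, the neighbours of the dentate gyrus, summed to 239 and 270.2 CPM in cortex and 325, 393 and 309.8 CPM in dentate gyrus, with Cpne4 called toward dentate gyrus and Man1a toward cortex. Interneuron markers summed to 1041 and 1004 CPM in cortex and 202 to 233 CPM in dentate gyrus. Sst held 699 and 641 CPM of the cortex sums. Gad1 was called the other way, toward dentate gyrus (log2 0.93), and Slc32a1 was not called (log2 -2.04). Astrocyte markers summed to 152 and 126 against 50.2 to 85.3 CPM, and oligodendrocyte markers to 221 and 293 against 161 to 222 CPM. Most of the astrocyte sum in cortex was Aldoc, at 127 and 88.8 CPM against 18.1, 20.5 and 21.2 CPM, while Slc1a3 and Aqp4 were not called and had log2 changes of 1.16 and 0.61. Microglial markers reached at most 8.21 CPM and vascular markers at most 14.4 CPM, with C1qa at 0 counts and Cldn5 under 1 CPM in every library. General neuron markers summed to 37887 and 32639 CPM in cortex and 21254, 22666 and 19904.5 CPM in dentate gyrus. Snap25, Slc17a7 and Syt1 of that set were called toward cortex (log2 -0.76, -0.87 and -0.93) and Rbfox3 toward dentate gyrus (0.83). Of the marker sets named here, only the oligodendrocyte sums overlapped between tissues. The part of these sets in the gene differences described here was not tested. In bulk libraries, fewer cells of a type and less RNA per cell cannot be told apart. No unpurified input was analysed here.

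Of the 37 genes, 20 differed between the tissues (54.1%), 9 toward dentate gyrus and 11 toward cortex, by edgeR's quasi-likelihood test with a Benjamini-Hochberg adjusted p under 0.05 over all genes, which is what "called" means in this text. Among all 14136 genes tested 21.3% were called, 10.5% toward dentate gyrus and 10.8% toward cortex. Abundant genes are called more often, and 36 of the 37 genes had a mean of at least 10 CPM; among the 7903 tested genes at that level 31.1% were called, 16.6% toward dentate gyrus and 14.5% toward cortex. Values of the 2 tissues did not overlap for 26 of the 37 genes (70.3%), against 50.1% of all tested genes and 59.1% of those with a mean of at least 10 CPM. Most of the 37 genes lay well above 10 CPM, so the tested genes at that level are not matched to them in abundance. The genes moved in opposite directions within families, and their median log2 change, dentate gyrus minus cortex, was 0.13 against 0.02 over all tested genes. When the change had to exceed 1.5-fold, 9 of the 37 were called, where 10.9% of all tested genes were. Those 9 were Camkk1 and Camk2b toward dentate gyrus and Camk4, Begain, Camk2d, Iqsec1, Dlgap4, Camkk2 and Dlg2 toward cortex.

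**Figure D1:**
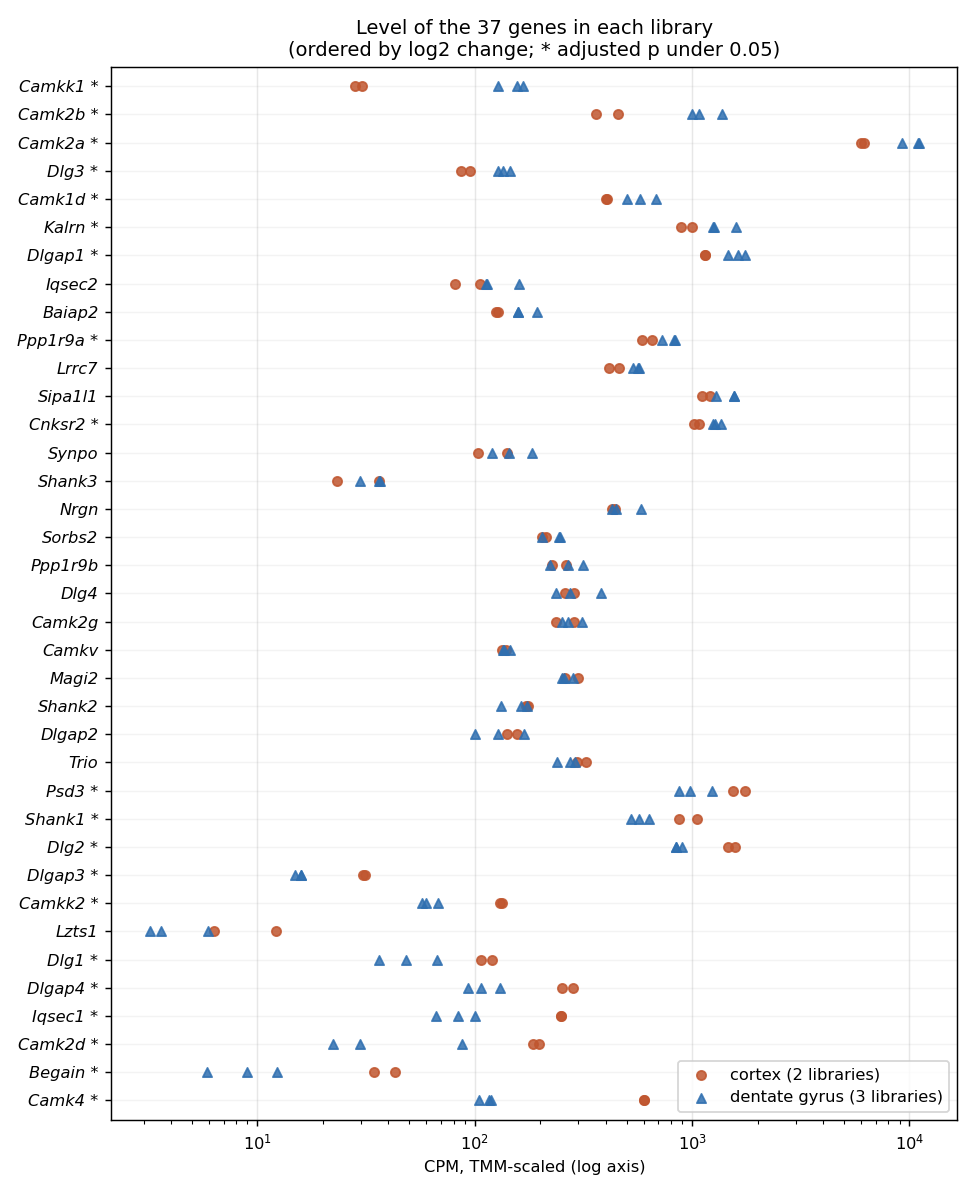
Level of each of the 37 genes in every library, in TMM-scaled CPM on a log axis, with circles for the 2 cortex and triangles for the 3 dentate gyrus libraries, ordered by fitted change. The tissues separate most at the top (Camkk1, Camk2b) and at the bottom (Camk4, Begain, Camk2d).

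CaMKII genes were higher in dentate gyrus as a whole, through the alpha and beta forms, while the delta form was lower there. Camk2a encodes the alpha subunit, the main kinase of the density. Its level was 6188 and 5983 CPM in cortex and 10916, 9194 and 11057 CPM in dentate gyrus, with the replicates in number order here and throughout. Every dentate gyrus library was above both cortex libraries, a log2 change of 0.77 (SE 0.09, adjusted p 0.000221 by edgeR). Camk2b encodes the beta subunit, which binds actin filaments and anchors the kinase in spines (chromosome 11, 5969644 to 6066362, minus strand, GRCm38). It was at 455 and 360 CPM in cortex and at 1367, 1004 and 1081 CPM in dentate gyrus. The groups were far apart, 2.82-fold higher in dentate gyrus (SE 0.16 on the log2 scale, adjusted p 0.000157 by edgeR).

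Camk2d encodes the delta subunit, known best from heart muscle (chromosome 3, 126596302 to 126846326, plus strand). It was at 198 and 185 CPM in cortex and at 22.2, 87.9 and 29.5 CPM in dentate gyrus. The tissues did not overlap, but dentate gyrus replicate 2 lay well above the other dentate gyrus libraries. The log2 change was -2.04 (SE 0.47, adjusted p 0.0119 by edgeR). It was -2.90 (adjusted p 1.93e-05) without dentate gyrus replicate 2, and the call was lost without cortex replicate 1 (adjusted p 0.0521) and with robust dispersion (adjusted p 0.0577). That library stood apart in other genes too. The layer 5 marker Fezf2 was at 1.82, 60.2 and 17.5 CPM in the dentate gyrus libraries and at 353 and 283 CPM in cortex. The matrix gene Dcn, named after its values were seen, reached 1.71, 114 and 10.5 CPM in dentate gyrus and 35.2 and 25.8 CPM in cortex. The part of these differences in the Camk2d value was not tested. Camk2g, the gamma subunit, was at 238 and 286 CPM in cortex and 313, 253 and 269 CPM in dentate gyrus. The groups overlapped, with a log2 change of 0.09 and a 95% interval of -0.24 to 0.42.

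Per kilobase of exon the 4 CaMKII genes together gave 909 ± 21.9 CPM per kb in cortex (SD, n = 2) and 1563 ± 155 CPM per kb in dentate gyrus (SD, n = 3), 1.72 times as much. With 2 against 3 libraries an exact 2-sided permutation test has 10 splits and cannot go below p = 0.1, which is what it gave here; it cannot reach 0.05 for any share or total in this text. The alpha form took nearly the same part of the family in each tissue, 89.6% and 89.7% of counts per kb in cortex and 88.0%, 88.9% and 90.2% in dentate gyrus. The beta form took 5.39% and 4.41% in cortex and 9.01%, 7.94% and 7.21% in dentate gyrus, without overlap. The alpha to beta ratio per kb was 16.6 and 20.3 in cortex and 9.76, 11.2 and 12.5 in dentate gyrus, with an exact permutation p of 0.1. The delta form took 0.953% and 0.920% against 0.0594%, 0.282% and 0.0799%, and the gamma form 4.02% and 4.99% against 2.94%, 2.86% and 2.55%. The exon union of Camk2d spans 22493 bases and its coding length is 1795 bases, so its share depends on the length used. With coding length it averaged 2.78% in cortex and 0.420% in dentate gyrus, lower in dentate gyrus as with exon length.

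The kinases of the CaMKK to CaMKIV cascade held the largest changes in each direction among the 37 genes. Camkk1 encodes a kinase that activates CaMKI and CaMKIV (chromosome 11, 73019008 to 73042073, plus strand). It was at 28.3 and 30.5 CPM in cortex and 167, 129 and 157 CPM in dentate gyrus. Dentate gyrus libraries were all more than 4 times the higher cortex library, with a log2 change of 2.36 (SE 0.20, adjusted p 3.46e-05 by edgeR). Its relative Camkk2, which also activates the energy-sensing kinase AMPK, went the other way (chromosome 5, 122731170 to 122779409, minus strand). It was at 130 and 133 CPM in cortex and 57.5, 68.1 and 59.4 CPM in dentate gyrus, a log2 change of -1.10 (SE 0.17, adjusted p 0.00155 by edgeR).

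The order of the kinase kinase pair differed between the tissues. Camkk1 made up 38.9% and 40.1% of the pair's counts per kb in cortex and 89.5%, 84.7% and 88.6% in dentate gyrus, without overlap (exact permutation p 0.1, adjusted p 0.133 over 20 shares). With no length correction the means were 18.2% and 70.7%. Summed per kb, the pair reached 19.5 and 20.4 CPM per kb in cortex and 46.1 ± 4.80 CPM per kb (SD, n = 3) in dentate gyrus.

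Downstream, Camk4 encodes CaMKIV, a mainly nuclear kinase that phosphorylates the transcription factor CREB. It was at 602 and 598 CPM in cortex and 104, 116 and 118 CPM in dentate gyrus. The libraries of each tissue were close together and the tissues far apart, with a log2 change of -2.41 (SE 0.12, adjusted p 2.03e-06 by edgeR), the smallest adjusted p of the 37 genes. Camk1d encodes a CaMKI form, the other target of the kinase kinases. It was at 406 and 401 CPM in cortex and 685, 502 and 573 CPM in dentate gyrus, higher in dentate gyrus by a log2 change of 0.54 (adjusted p 0.0229 by edgeR). That call was lost without any single library other than dentate gyrus replicate 2, with adjusted p from 0.0560 to 0.136. Of the counts per kb of Camk4 and Camk1d together, Camk4 took 77.2% and 77.3% in cortex and 25.8%, 34.5% and 32.0% in dentate gyrus. With coding length it averaged 56.4% and 14.5%. Camkv, a pseudokinase that binds calmodulin at synapses, was nearly level at 140 and 133 CPM in cortex and 136, 145 and 137 CPM in dentate gyrus. Its log2 change was 0.03 with a 95% interval of -0.30 to 0.35.

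**Figure D2:**
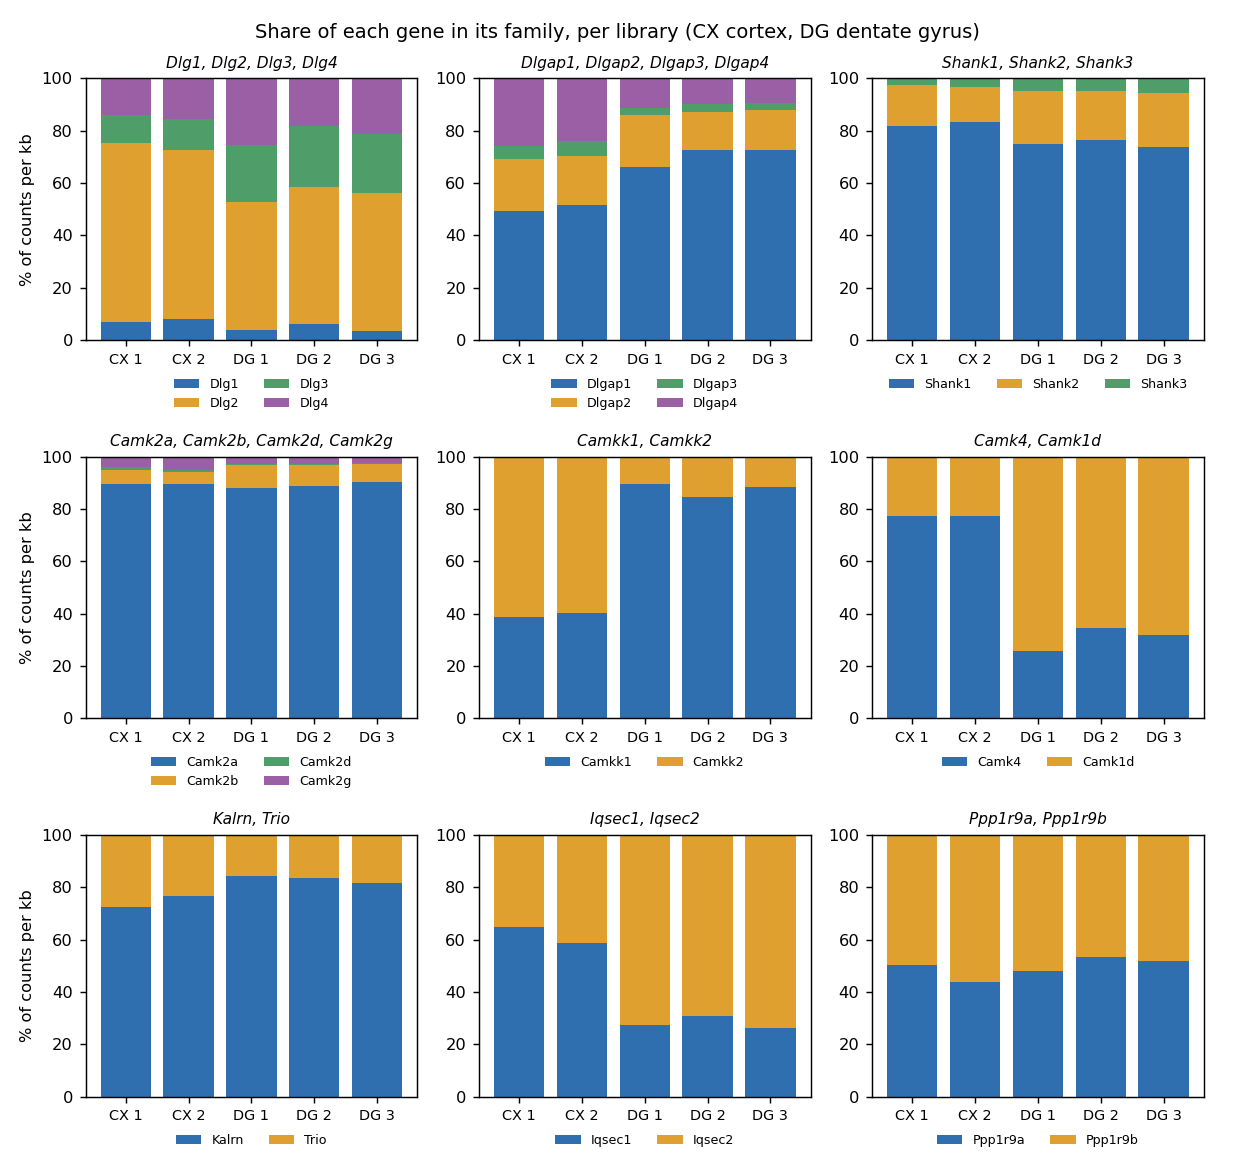
Share of each gene in the counts per kb of its family, in percent, in the 2 cortex (CX) and 3 dentate gyrus (DG) libraries. Camkk1, Camk4 and Iqsec1 change places with their partners between tissues, whereas Camk2a stays between 88.0% and 90.2%.

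The promoter windows of the CaMK genes with opposite changes are shown because each pair, Camkk1 with Camkk2 and Camk2b with Camk2d, separates the tissues in opposite directions. Each runs from 250 bases before to 50 after the RefSeq gene start on GRCm38.p6, 5′ to 3′ on the gene's strand, with capitals marking the GC box GGGCGG on either strand, the core letters bound by Sp-family factors. Camkk1 is at chr11:73018738-73019037 on the plus strand, Camkk2 at chr5:122779361-122779660 on the minus strand, Camk2b at chr11:6065699-6065998 on the minus strand and Camk2d at chr3:126596701-126597000 on the plus strand. The windows of Camk2b and Camk2d lie wholly inside the gene spans given above, which come from another annotation (GENCODE M21).
Camkk1: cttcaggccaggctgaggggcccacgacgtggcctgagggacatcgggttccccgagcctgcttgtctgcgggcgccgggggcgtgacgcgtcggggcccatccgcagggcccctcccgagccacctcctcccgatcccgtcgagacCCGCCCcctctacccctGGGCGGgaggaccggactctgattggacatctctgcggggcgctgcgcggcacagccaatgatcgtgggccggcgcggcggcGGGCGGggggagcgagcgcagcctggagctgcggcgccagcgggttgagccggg
Camkk2: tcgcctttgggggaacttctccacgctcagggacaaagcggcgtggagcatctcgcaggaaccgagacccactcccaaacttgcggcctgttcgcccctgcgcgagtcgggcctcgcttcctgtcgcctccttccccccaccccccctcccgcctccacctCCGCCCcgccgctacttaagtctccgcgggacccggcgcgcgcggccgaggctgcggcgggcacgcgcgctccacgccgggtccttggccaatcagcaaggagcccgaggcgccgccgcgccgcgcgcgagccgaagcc
Camk2b: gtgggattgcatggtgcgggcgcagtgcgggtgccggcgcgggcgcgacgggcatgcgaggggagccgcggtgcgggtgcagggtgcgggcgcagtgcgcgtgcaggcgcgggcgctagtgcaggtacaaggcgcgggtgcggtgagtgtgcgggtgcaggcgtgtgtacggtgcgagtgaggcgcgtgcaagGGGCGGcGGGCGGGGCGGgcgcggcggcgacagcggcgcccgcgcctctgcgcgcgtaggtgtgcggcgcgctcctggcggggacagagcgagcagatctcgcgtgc
Camk2d: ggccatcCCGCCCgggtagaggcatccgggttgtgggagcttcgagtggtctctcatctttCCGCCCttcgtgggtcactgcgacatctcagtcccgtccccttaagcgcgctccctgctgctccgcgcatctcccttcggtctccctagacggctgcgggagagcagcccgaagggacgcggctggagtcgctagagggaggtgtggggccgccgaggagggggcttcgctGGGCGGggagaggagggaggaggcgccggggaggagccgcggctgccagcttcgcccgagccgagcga
All 4 windows are rich in G and C, at 75.3%, 73.3%, 77.3% and 70.3%. They hold 3, 1, 3 and 3 GC boxes, of which 2 in Camk2b overlap by 1 base, so genes of either direction carry them. RefSeq windows matched 28 of the 37 genes, with 50 windows in all. The GC box was in 31 of these 50 windows (62.0%), against 35.7% of all 32851 windows of the table. The windows of these genes also had a higher median G and C content, 65.3% against 52.7%, and a median of 16.5 against 7.0 CpG, and the part of that in the GC box share was not tested. The palindromic cAMP response element TGACGTCA was in 0 of the 50 and in 1.79% of all windows. The E-box CAGATG was in 7 of the 50 (14.0%) and in 17.2% of all. All were searched on both strands, and none of the 3 motifs contains another. A match is only a description of these letters.

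Among the Dlg scaffolds the lead of Dlg2 was smaller in dentate gyrus. Dlg2 encodes PSD-93 (chromosome 7, 90476672 to 92449247, plus strand). It was at 1569 and 1458 CPM in cortex and 897, 842 and 841 CPM in dentate gyrus, clearly apart, with a log2 change of -0.82 (SE 0.09, adjusted p 0.000223 by edgeR). Dlg1, which encodes SAP97, a scaffold that handles receptors on their way to the synapse, was at 107 and 120 CPM in cortex and 48.3, 66.8 and 36.3 CPM in dentate gyrus. Its log2 change was -1.17 (SE 0.25, adjusted p 0.00862 by edgeR), and leaving out cortex replicate 2 gave an adjusted p of 0.0550.

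Dlg3, the X-linked gene of SAP102, was the one gene of the family called higher in dentate gyrus. Cortex held 86.7 and 95.2 CPM of it and dentate gyrus 145, 135 and 128 CPM. Its log2 change was 0.58 (adjusted p 0.0295 by edgeR), and the call was lost when any single library was left out, with adjusted p of 0.0578 to 0.151. Dlg4 encodes PSD-95, the best known scaffold of the density. It was at 260 and 285 CPM in cortex and 381, 238 and 274 CPM in dentate gyrus. These groups overlapped, with a log2 change of 0.13 and a 95% interval of -0.30 to 0.55.

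Within the family the parts of Dlg3 and Dlg4 were larger in dentate gyrus. Dlg2 took 68.4% and 64.6% of counts per kb in cortex and 48.7%, 52.3% and 52.9% in dentate gyrus. Dlg3 took 10.5% and 11.8% against 21.9%, 23.3% and 22.5%, and Dlg4 took 14.0% and 15.5% against 25.4%, 18.1% and 21.2%. None of these groups overlapped (exact permutation p 0.1, 0.1 and 0.2). With coding length the Dlg3 share averaged 5.05% and 10.9%, lower in size but in the same direction. Summed per kb, the family was at 140 ± 1.59 CPM per kb in cortex and 103 ± 8.59 CPM per kb in dentate gyrus.

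Among the Dlgap linkers 1 gene was higher and 2 were lower in dentate gyrus, while their sum was nearly level. Dlgap1 was at 1146 and 1147 CPM in cortex and 1624, 1458 and 1757 CPM in dentate gyrus, all higher, with a log2 change of 0.49 (SE 0.10, adjusted p 0.00725 by edgeR, and 0.0564 without cortex replicate 2). Dlgap4 was at 282 and 252 CPM in cortex and 131, 93.2 and 107 CPM in dentate gyrus (chromosome 2, 156613705 to 156764363, plus strand). Its log2 change was -1.27 (SE 0.17, adjusted p 0.000575 by edgeR).

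Dlgap3, whose loss in mice is known for compulsive grooming, was at 30.5 and 31.2 CPM in cortex and 15.9, 14.9 and 15.8 CPM in dentate gyrus. The replicates were tight, yet the call at a log2 change of -0.99 (adjusted p 0.0330 by edgeR) was lost when any single library was left out, with adjusted p of 0.0552 to 0.134. Dlgap2 was at 156 and 141 CPM in cortex and 169, 101 and 128 CPM in dentate gyrus, overlapping, with a log2 change of -0.17 and a 95% interval of -0.64 to 0.31. The family total per kb was nearly level, 127 ± 4.13 CPM per kb in cortex and 128 ± 13.9 CPM per kb in dentate gyrus (exact permutation p 1.0). The share of Dlgap1 in it was 49.4% and 51.8% in cortex and 66.1%, 72.6% and 72.6% in dentate gyrus, while that of Dlgap4 was 25.7% and 24.1% against 11.3%, 9.83% and 9.38%.

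Of the Shank genes, the master scaffolds of the density, Shank1 was higher in cortex. It was at 875 and 1052 CPM in cortex and 630, 525 and 571 CPM in dentate gyrus, without overlap, with a log2 change of -0.74 (SE 0.12, adjusted p 0.00205 by edgeR). Shank2 was at 173 and 175 CPM in cortex and 174, 132 and 164 CPM in dentate gyrus. Shank3 was at 23.3 and 36.4 CPM against 36.2, 29.6 and 36.8 CPM. Both overlapped between tissues, with 95% intervals of the log2 change of -0.51 to 0.20 and -0.44 to 0.84. Shank1 led the family in every library, with 81.7% and 83.2% of counts per kb in cortex and 74.9%, 76.3% and 73.8% in dentate gyrus. The family summed to 111 ± 13.1 CPM per kb in cortex and 73.0 ± 7.32 CPM per kb in dentate gyrus (exact permutation p 0.1).

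**Figure D3:**
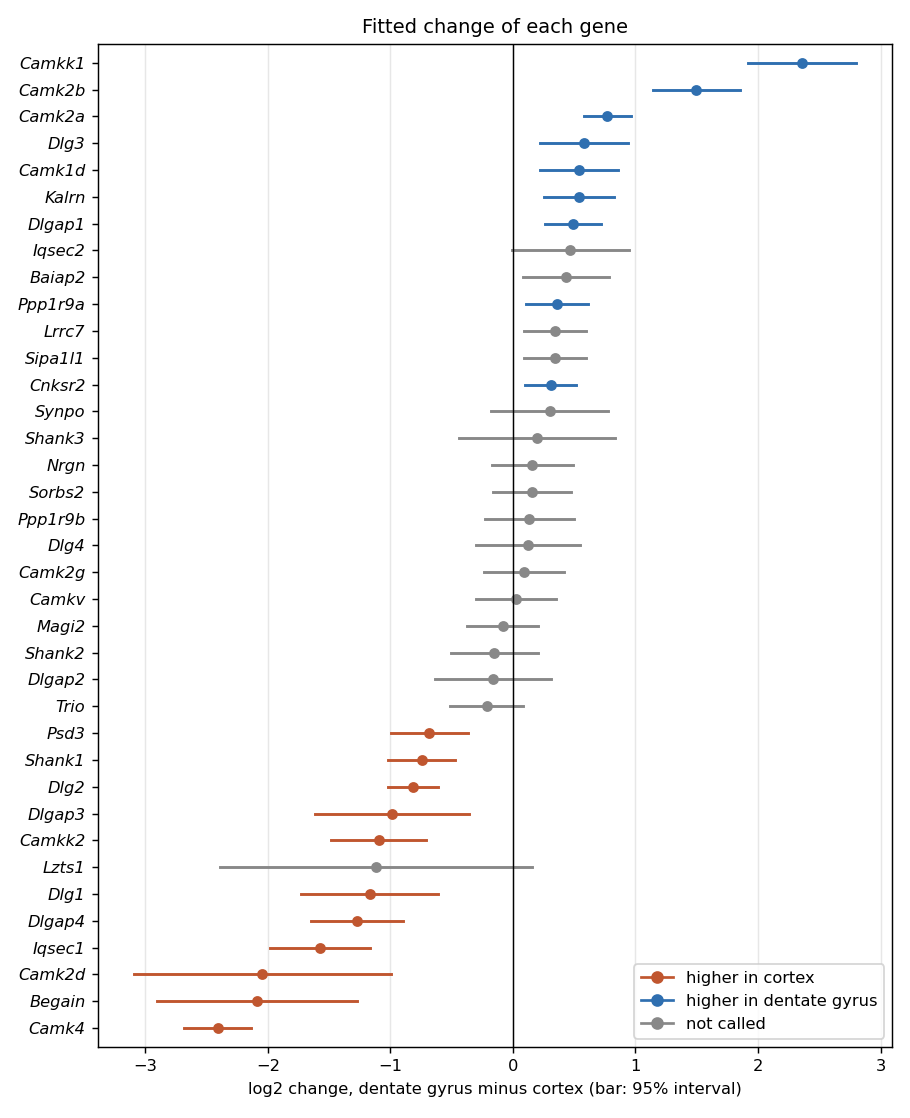
Fitted log2 change of each gene, dentate gyrus minus cortex, with its 95% interval from the edgeR fit and coloured by call. The changes run from -2.41 (Camk4) to 2.36 (Camkk1), and most of the 17 genes not called have intervals that span 0.

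Regulators of small GTPases reshape spine actin and receptor traffic, and 3 of the 6 were called, where 21.3% of all tested genes and 31.1% of those with a mean of at least 10 CPM were. Iqsec1 encodes a guanine nucleotide exchange factor for Arf6 (chromosome 6, 90656088 to 90988685, minus strand). It was at 249 and 249 CPM in cortex and 99.9, 84.0 and 66.7 CPM in dentate gyrus, a log2 change of -1.57 (SE 0.18, adjusted p 0.000246 by edgeR). Iqsec2, its X-linked relative, was at 80.8 and 106 CPM in cortex and 160, 114 and 112 CPM in dentate gyrus. It did not overlap but did not pass, with a log2 change of 0.47 and an adjusted p of 0.159 by edgeR. Iqsec1 was the larger part of the pair in cortex, at 65.0% and 58.6% of counts per kb, and the smaller part in dentate gyrus, at 27.3%, 30.7% and 26.3%.

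Kalrn encodes kalirin, an exchange factor for Rac1 that enlarges spines. It was at 885 and 1000 CPM in cortex and 1600, 1261 and 1247 CPM in dentate gyrus, with a log2 change of 0.54 (adjusted p 0.0148 by edgeR), lost without cortex replicate 1 (adjusted p 0.106). Its relative Trio was at 326 and 295 CPM in cortex and 290, 240 and 274 CPM in dentate gyrus. The groups did not overlap, and the change did not pass (log2 -0.21, adjusted p 0.308 by edgeR). Kalrn took 72.5% and 76.7% of the pair in cortex and 84.3%, 83.7% and 81.6% in dentate gyrus. Psd3, another exchange factor for Arf6, was at 1743 and 1546 CPM in cortex and 868, 1229 and 980 CPM in dentate gyrus, higher in cortex by a log2 change of -0.68 (adjusted p 0.00680 by edgeR, and 0.0561 without cortex replicate 1). Sipa1l1, the Rap regulator SPAR, was at 1105 and 1211 CPM against 1566, 1284 and 1555 CPM, without overlap but short of the threshold (log2 0.34, adjusted p 0.0565 by edgeR). It passed without dentate gyrus replicate 2 (adjusted p 0.0224).

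Among 10 adaptors and actin-linked proteins 3 were called, a share near the 31.1% of tested genes with a mean of at least 10 CPM. Begain, a protein that binds the guanylate kinase domain of PSD-95 (chromosome 12, 109032187 to 109068217, minus strand), reached 34.5 and 42.8 CPM in cortex and 12.3, 5.86 and 9.00 CPM in dentate gyrus. It was the second largest change toward cortex of the 37 genes, a log2 change of -2.09 (SE 0.37, adjusted p 0.00289 by edgeR). Cnksr2, a scaffold between Ras signalling and the density, and Ppp1r9a, which encodes neurabin, a protein that brings phosphatase 1 to actin, were slightly higher in dentate gyrus. Their log2 changes were 0.31 and 0.36 (adjusted p 0.0416 and 0.0465 by edgeR). These calls were lost under either other scaling, with adjusted p of 0.0582 to 0.0614 by edgeR. Of 16 other settings tried, left-out libraries among them, Cnksr2 was called in 4 and Ppp1r9a in 5. Lrrc7, which encodes densin, a partner of CaMKII, and Baiap2, which encodes the membrane-bending protein IRSp53, did not overlap between tissues and did not pass, with log2 changes of 0.34 and 0.43 and adjusted p of 0.0558 and 0.0793 by edgeR.

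The other adaptors gave no call. Ppp1r9b, which encodes spinophilin, the relative of neurabin, was at 227 and 262 CPM in cortex and 315, 223 and 268 CPM in dentate gyrus. Sorbs2, an actin-linked adaptor, Synpo, which encodes the spine apparatus protein synaptopodin, and Magi2, a scaffold with an inverted guanylate kinase layout, had log2 changes of 0.15, 0.30 and -0.08. Their 95% intervals were -0.16 to 0.47, -0.18 to 0.78 and -0.38 to 0.21. Lzts1, lowest of the 37 genes per kb in each tissue, was at 6.33 and 12.1 CPM in cortex and 5.93, 3.20 and 3.60 CPM in dentate gyrus, with as few as 72 counts in a library. Its log2 change of -1.12 had a 95% interval of -2.39 to 0.15. Nrgn encodes neurogranin, a small protein that holds calmodulin at low calcium and releases it when calcium rises. It was at 427 and 442 CPM in cortex and 582, 445 and 427 CPM in dentate gyrus, with an interval of -0.17 to 0.49.

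Compared per kb of exon, Camk2a was the most abundant of the 37 genes in each tissue, at 815 and 1392 CPM per kb on average, and Nrgn was next, at 299 and 334 CPM per kb. Camk4 ranked 3 in cortex with 184 CPM per kb and 18 in dentate gyrus with 34.6 CPM per kb. Camk2b ranked 12 in cortex with 44.7 CPM per kb and 4 in dentate gyrus with 126 CPM per kb. Camkk1 moved from rank 33 to rank 16, at 7.88 and 40.4 CPM per kb. Shank3 and Lzts1 stayed near the bottom, at 3.25 and 1.36 CPM per kb in cortex.

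Over the 9 families and pairs, 20 shares were compared, and 17 did not overlap between tissues. Shares within a family add up to a fixed whole, so a change in any member moves the others. The 17 are therefore not independent results. Gene levels did not overlap for 50.1% of all tested genes and 59.1% of those with a mean of at least 10 CPM. No such background was computed for shares. An exact permutation p of 0.1, the smallest the design allows, was found for 15 of the 20 shares. Their adjusted p over the 20 shares was 0.133. The exceptions without separation were Camk2a, Dlgap2 and Ppp1r9a, the last at 50.1% and 44.0% of its pair with Ppp1r9b in cortex and 48.2%, 53.4% and 51.7% in dentate gyrus.

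Related genes outside the 37 changed in each direction as well. Of 34 tested genes in a list of other scaffolds and adaptors, 7 were called toward dentate gyrus and 6 toward cortex, with a median log2 change of -0.19. Lin7c, a partner of the CASK scaffold, averaged 112 ± 13.0 CPM (SD, n = 2) in cortex and 809.7 ± 57.4 CPM (SD, n = 3) in dentate gyrus, whereas its relative Lin7a was called in the opposite direction (log2 -0.93). Tanc1 (log2 2.94), Abi1 (1.33) and Magi3 (-1.67) were the next smallest adjusted p-values. Lin7a was named after its values were seen. Of 26 tested regulators of small GTPases, 7 were called toward dentate gyrus and 8 toward cortex, with a median of -0.05. Tiam1, a Rac1 exchange factor, averaged 119 ± 2.75 CPM over the cortex libraries and 584 ± 50.1 CPM over those of dentate gyrus. Arhgap32 had a log2 change of -1.59, and Sipa1l3 and Rasgrf2 had 2.36 and 1.48.

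Of 29 tested genes of other CaM kinases and calmodulin regulators, 10 were called toward dentate gyrus and 7 toward cortex, with a median of 0.33. Camta1, a calmodulin-binding transcription activator, had a log2 change of 1.18, the death-associated kinase Dapk1 1.40, Pcp4l1 -3.03 and the doublecortin-like kinase Dclk1 -0.69. The following genes of that list were named after their values were seen. Camk2n2 and Camk2n1, which encode inhibitors of CaMKII, were higher in cortex, at 56.2 and 41.1 against 7.23, 12.7 and 7.90 CPM and at 1877 and 2249 against 1741, 1478 and 1589 CPM. The CaMKI genes Camk1 and Camk1g were higher in cortex, at 10.8 and 9.14 against 0.386, 0.577 and 1.76 CPM and at 43.2 and 49.9 against 0.0827, 3.68 and 2.03 CPM, opposite to Camk1d, and the lowest of these values rest on few reads. The remaining CaMKI gene of the list, Pnck, had a log2 change of 0.58 and was not called (adjusted p 0.326 by edgeR). Creb1, whose product CaMKIV phosphorylates, was higher in dentate gyrus (log2 0.78, adjusted p 0.0183 by edgeR), opposite to Camk4.

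Of 26 tested genes of spine actin and phosphatase 1, 9 were called toward dentate gyrus and 4 toward cortex, with a median of 0.10. Pak1, a kinase downstream of Rac1, averaged 2604 ± 178 CPM over the cortex libraries and 815 ± 30.3 CPM over those of dentate gyrus. Wasf1, a subunit of the WAVE complex, Cttnbp2, a partner of cortactin, and Ppp1r1a, an inhibitor of phosphatase 1, had log2 changes of 1.22, 1.29 and 1.71. The shares called in these lists were 38.2% for the scaffolds and adaptors, 57.7% for the GTPase regulators, 58.6% for the CaM kinase list and 13 of 26 for spine actin and phosphatase 1, where 21.3% of all tested genes and 31.1% of those with a mean of at least 10 CPM were called.

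**Figure D4:**
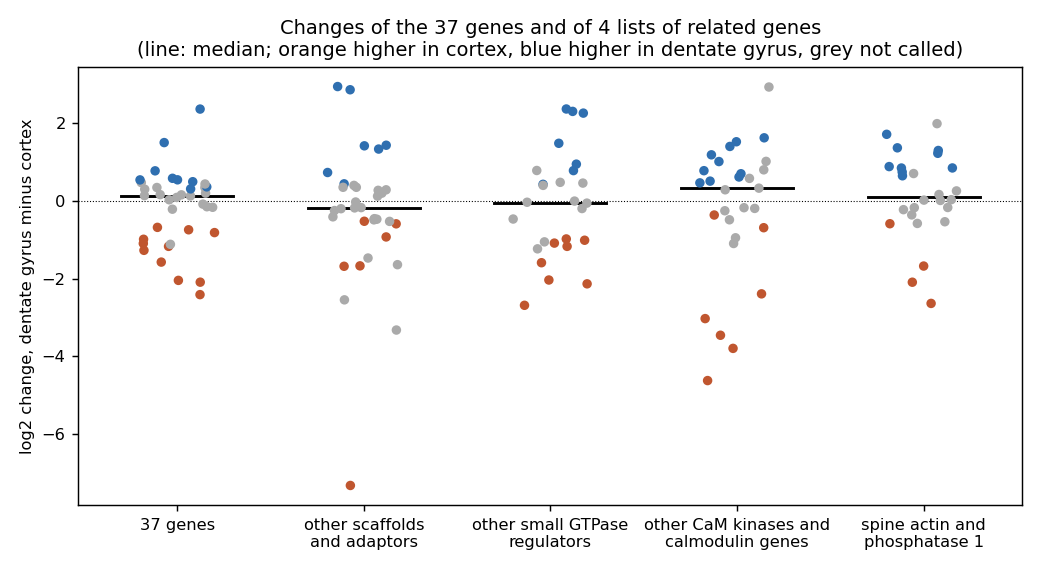
Log2 change, dentate gyrus minus cortex, of the 37 genes and of 4 lists of related genes, each point a gene coloured by call and each line a median. Called genes lie on either side of 0 in all 5 groups, and the medians lie between -0.19 and 0.33.

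Some of the calls depended on the libraries or settings used. The fitted changes of Dlg3, Dlgap3 and Cnksr2 still kept their direction with each library left out, at 0.51 to 0.62, -0.97 to -1.02 and 0.24 to 0.35. Of the 20 calls, 10 were made again with each library left out in turn, and 8 under all 16 alternatives tried. Those 8 were Camkk1, Camk2b, Camk4, Begain, Iqsec1, Dlgap4, Camkk2 and Dlg2. Camk2a and Shank1 were each called under 15 of the 16, and failed only where the change had to exceed 1.5-fold. Leaving out cortex replicate 1, which holds the gene Car8 at 411 CPM against 1.43 CPM in the other cortex library, together with dentate gyrus replicate 2 kept 14 of the 20 calls in the same direction; Car8 was named after its values were seen.

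**Figure D5:**
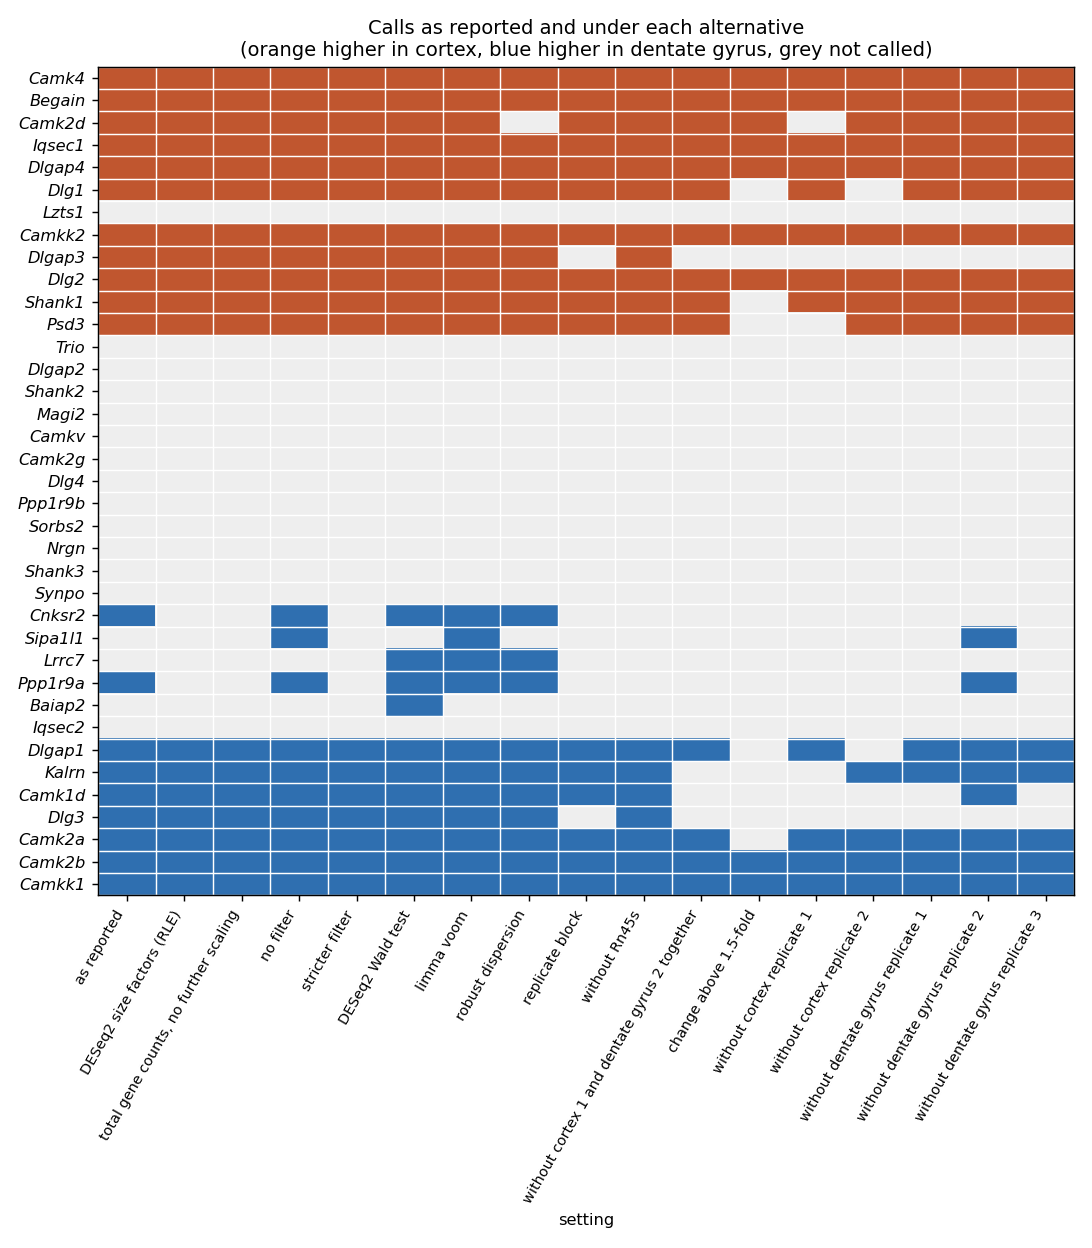
Calls for each of the 37 genes (rows) as reported and under 16 alternatives (columns), orange for higher in cortex, blue for higher in dentate gyrus and grey for not called. The 8 genes called in all columns are Camk4, Begain, Iqsec1, Dlgap4, Camkk2, Dlg2, Camk2b and Camkk1, while Cnksr2 and Ppp1r9a are called in some columns only.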

How the data were processed

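Ribosome-bound RNA was measured in 2 cortex and 3 dentate gyrus libraries. The files deposited by the authors hold whole read counts for each gene symbol, made with STAR 2.0.0e and HTSeq on mm10, per the submitters' processing notes; for the annotation, strand setting and HTSeq version the answer is: not given in the sources used here. Without strand, reads of overlapping antisense genes cannot be told apart, which concerns up to 3.8% of exon bases (Sorbs2, Shank1 and Dlgap4). Summary rows for matches at several places held 25.03% to 31.76% of each library's total over genes and summary rows, and those for no feature 10.59% to 14.83%. These rows were left out of library sizes.

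From the counts, edgeR 4.0.16 in R 4.3.3 was run with TMM scaling, filterByExpr and a quasi-likelihood F test on tissue over 14136 genes, with Benjamini-Hochberg adjustment. SE is that of the log2 change, and SD that of CPM. CPM per kb used the union of exons in GENCODE M21 (GRCm38, the same build as mm10), which can exceed the transcript expressed. Shares are per library and were compared by an exact permutation test. The edgeR fit was also run on simulated counts with known changes, drawn with the dispersions fitted to these libraries. Such counts follow the model that the fit assumes and hold no library that stands apart, so they do not test the calls made here. The comparison of shares was not simulated.

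The genes and the lists of related genes were chosen with earlier results of these data known. Genes were given with their value in every library where called without overlap at an absolute log2 change of at least 0.8 or where the family's shares did not overlap; Camkv, Nrgn, Lzts1, Sipa1l1, Psd3 and Ppp1r9b are shown in full outside this rule, a choice made with their values known. Of each list the 4 smallest adjusted p-values were named. Alternatives were other scalings and filters, DESeq2 1.42.0, limma voom (limma 3.58.1), robust dispersion, a replicate block, left-out libraries, removal of Rn45s, a 1.5-fold minimum change, and other lengths. Figures used matplotlib 3.10.9.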

Additional observations from a re-analysis of the deposited data

How the results depend on the processing

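With each library left out in turn, the members called higher in dentate gyrus numbered 4 to 8 in place of 9, those higher in cortex 8 to 10 in place of 11, all genes called 1886 to 2775 in place of 3009, and the list of other scaffolds and adaptors 8 to 13 in place of 13. The lowest numbers came without cortex replicate 1 or replicate 2, which leaves 1 cortex library that is assumed to vary like the dentate gyrus libraries. With cortex replicate 1 and the second dentate gyrus library both left out, 4 members were higher in dentate gyrus, 1578 genes were called in all, and 10 genes in the list of other CaM kinases and calmodulin regulators in place of 17. Under a minimum change of 1.5-fold the numbers were 2 members higher in dentate gyrus, 7 higher in cortex, 1545 genes in all, 9 other GTPase regulators in place of 15, 10 other CaM kinase genes and 7 spine actin genes in place of 13, since that test asks for more.

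Changes near 0 turned sign without being called. With each library left out in turn, the log2 change ran from -0.11 (no dentate gyrus 1) to 0.25 for Dlg4, from -0.085 (no cortex 1) to 0.52 for Shank3, and from -0.032 (no cortex 1) to 0.19 for Camk2g, which was also -0.023 with no dentate gyrus 1. It ran from -0.013 to 0.23 for Nrgn and from -0.012 to 0.24 for Ppp1r9b, both lowest with no dentate gyrus 1. For Camkv it ran from -0.041 (no cortex 2) to 0.069 and was -0.016 with no dentate gyrus 2 and -0.0003 with total gene counts as the only scaling. For Dlgap2 it was 0.080 with both doubted libraries left out. The share of Camk2a in its family was 0.224 points higher in dentate gyrus with coding length, and lower with exon length. All other shares kept their direction under all alternatives run.

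Equal replicate numbers are not said to mark a shared animal. Deviations from the tissue means had correlations of -0.004 and -0.016 in same-numbered libraries. With 2 cortex libraries the cortex deviations mirror each other, so these values cannot tell whether the libraries are paired. With the replicate block, 6 members were higher in dentate gyrus, 10 in cortex and 2237 genes were called in all. By DESeq2 11 and 11 members were called, and 3943 genes in all in place of 3009.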

Other observations

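Dentate gyrus replicate 1 had the highest CPM of the 3 dentate gyrus libraries for 26 of the 37 genes (70.3%), against 33.9% of all tested genes, while replicates 2 and 3 were highest for 6 and 5. In cortex the split was 17 for replicate 1 and 20 for replicate 2. The pattern was noticed after the values were seen, and was not tested further. Without dentate gyrus replicate 1, 5 members were called toward dentate gyrus and 10 toward cortex, and 2698 genes in all in place of 3009.

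The X-linked genes among the 37 are Dlg3, Iqsec2 and Cnksr2. Their log2 changes were 0.58, 0.47 and 0.31, each toward dentate gyrus, and Iqsec2 was not called. They were grouped by chromosome after their values were seen, and no background over other X-linked genes was computed.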
